A study of Homo sapiens with 9 samples.

Results

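The genes described here are 10 members of the BCL2 family, chosen by name from 26636 genes listed in all 9 RNA sequencing libraries of the series. They comprise 3 anti-apoptotic genes (MCL1, BCL2 and BCL2L1, which encodes BCL-XL), 3 effector genes (BAX, BAK1 and BOK) and 4 BH3-only genes (BCL2L11, which encodes BIM, BID, PMAIP1, which encodes NOXA, and BBC3, which encodes PUMA). All 10 were among the 13014 genes tested, those with a mean of at least 1 FPKM (fragments per kilobase of exon, scaled to the mapped reads). The libraries are labelled as BT549, an established human breast cancer cell line of mesenchymal character that lacks hormone receptors, of wild-type genotype. The groups were siWFDC21P-1 (3 libraries), siWFDC21P-2 (3 libraries), both of them siRNAs against the pseudogene transcript WFDC21P, and siNC (3 libraries), the control siRNA. Every group received 5 µl of siRNA at 10 µM and was harvested at 48 h. The labels do not say that the libraries of a group came from separate cultures, so the p-values below measure the spread between these libraries.

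The BCL2 family decides whether the outer mitochondrial membrane is breached in apoptosis. BAX and BAK oligomerise and open the membrane, the anti-apoptotic proteins bind and restrain them, and the BH3-only proteins activate the effectors or occupy the anti-apoptotic proteins. MCL1 is a short-lived protein that is continually resynthesised, breast tumours often depend on it together with BCL-XL, and NOXA binds chiefly MCL1.

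The 9 libraries did not behave as 1 cell background. They fell into 3 expression sets, within which the Pearson r of log2(FPKM + 1) was 0.927 to 0.986 and between which it was 0.658 to 0.744. Set 1 held siWFDC21P-1 replicates 1 and 2 with siNC replicate 1, set 2 held siWFDC21P-1 replicate 3 with siNC replicate 2, and set 3 held siWFDC21P-2 replicates 1 to 3 with siNC replicate 3. Both set 2 libraries went against the BT549 label, with summed epithelial markers of 1060 and 1661 FPKM over 7 genes. The mesenchymal cadherin gene CDH2 had 14.7 to 18.1 FPKM in set 3 and at most 0.00698 FPKM in sets 1 and 2, so the set 1 libraries went against the label in that marker too. In set 3 the 7 epithelial markers summed to 7.01 to 10.2 FPKM and the 6 mesenchymal ones to 249.7 to 378 FPKM. In set 1 the epithelial markers summed to 174 to 384 FPKM, mainly KRT8 and KRT18, with EPCAM at 0.0412 FPKM or less. The mesenchymal ones summed to 58.6 to 63.4 FPKM there, with TWIST1 at 0. Other mesenchymal markers were present in set 1, VIM at 38.5 to 41.0, ZEB1 at 5.14 to 5.33 and FN1 at 1.45 to 3.71 FPKM. SNAI2 had 10.9 to 16.0 FPKM in set 1, above the 2.07 to 10.4 FPKM of set 3. Each knockdown library was therefore set against the single siNC library of its own set. Because siWFDC21P-1 was only in sets 1 and 2 and siWFDC21P-2 only in set 3, the siRNAs shared no set. Differences between the siRNAs given below cannot be told apart from differences between the backgrounds or in depth. Depth, as the FPKM denominator, ranged over 28.1 to 29.7 M reads a library for sets 1 and 2, and over 16.3 to 17.4 M for set 3. The target WFDC21P was at 2.04%, 24.9% and 176% of its set's siNC in siWFDC21P-1 replicates 1 to 3, the last from 7 against 4 reads, and at 60.2%, 48.3% and 30.8% in the siWFDC21P-2 libraries.

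Both effector genes of the mitochondrial pore are shown by their promoters, because their levels against siNC differed: BAK1 was below siNC in all 6 knockdown libraries, and BAX was not below it in 5 of them. The sequences are from RefSeq (GRCh38.p14), 250 bases before to 50 after the annotated start, for BAK1 on the minus strand at chr6:33580227-33580526 and for BAX on the plus strand at chr19:48954625-48954924. Capitals mark the E-box CACGTG, a palindrome, and the GC box GGGCGG on either strand; no 2 of the marked motifs overlap.
BAK1: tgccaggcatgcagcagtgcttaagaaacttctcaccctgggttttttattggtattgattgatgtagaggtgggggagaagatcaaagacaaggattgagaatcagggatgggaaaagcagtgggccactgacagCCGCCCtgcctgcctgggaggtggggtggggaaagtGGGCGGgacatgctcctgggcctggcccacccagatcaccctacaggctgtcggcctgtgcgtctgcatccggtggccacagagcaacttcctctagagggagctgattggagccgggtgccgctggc
BAX: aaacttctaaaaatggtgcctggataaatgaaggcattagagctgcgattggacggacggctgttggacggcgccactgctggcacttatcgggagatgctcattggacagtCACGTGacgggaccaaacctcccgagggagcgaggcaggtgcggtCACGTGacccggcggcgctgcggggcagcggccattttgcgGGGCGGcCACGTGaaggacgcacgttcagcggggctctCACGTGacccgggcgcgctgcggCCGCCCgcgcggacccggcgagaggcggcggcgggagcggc
The BAX promoter held 4 E-boxes, with first bases at -138, -93, -45 and -14 relative to the start, and the BAK1 promoter held 0. Of 34796 RefSeq promoters, 7.20% held at least 1 E-box. Among the other members, the BBC3 promoter and some of the BID promoters held 1 E-box each. Both promoters held 2 GC boxes, and 44.9% of all promoters held at least 1. Of the 10 members 9 had an entry in the promoter table, with 14 entries between them; MCL1 is named only. The STAT motif TTCNNNGAA was in 0 of the 14 entries (7.67% of all promoters). These matches describe letters in these windows and no binding was measured.

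MCL1 was the most abundant member in every library and was lower in all 6 knockdown libraries than in the siNC library of their set, at 40.3 to 63.6% of it. BAK1, an effector that MCL1 restrains, was also lower in all 6, at 27.5 to 86.3%, and so was the low-level BCL2, at 39.6 to 96.4%. No member was higher in all 6. Of all tested genes, 7.92% were below and 10.8% above the siNC of their set in all 6 libraries, so the 3 of 10 members below are to be read against that share. No member passed the adjusted threshold for either siRNA or for both pooled (limma with the set as a term, Benjamini-Hochberg adjusted p of at most 0.05 over 13014 genes). That threshold was passed by 0.0231% of tested genes for siWFDC21P-1, 0.0% for siWFDC21P-2 and 0.00768% for both pooled. At an unadjusted limma p under 0.05 stood 3 members for siWFDC21P-1 (MCL1, BAK1 and BCL2L1; 13.8% of tested genes), 1 for siWFDC21P-2 (MCL1; 5.24%) and 3 for both pooled (MCL1, BAK1 and BOK; 14.4%). No member did so for the difference between the siRNAs, where 5.4% of tested genes did.

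**Figure D1:**
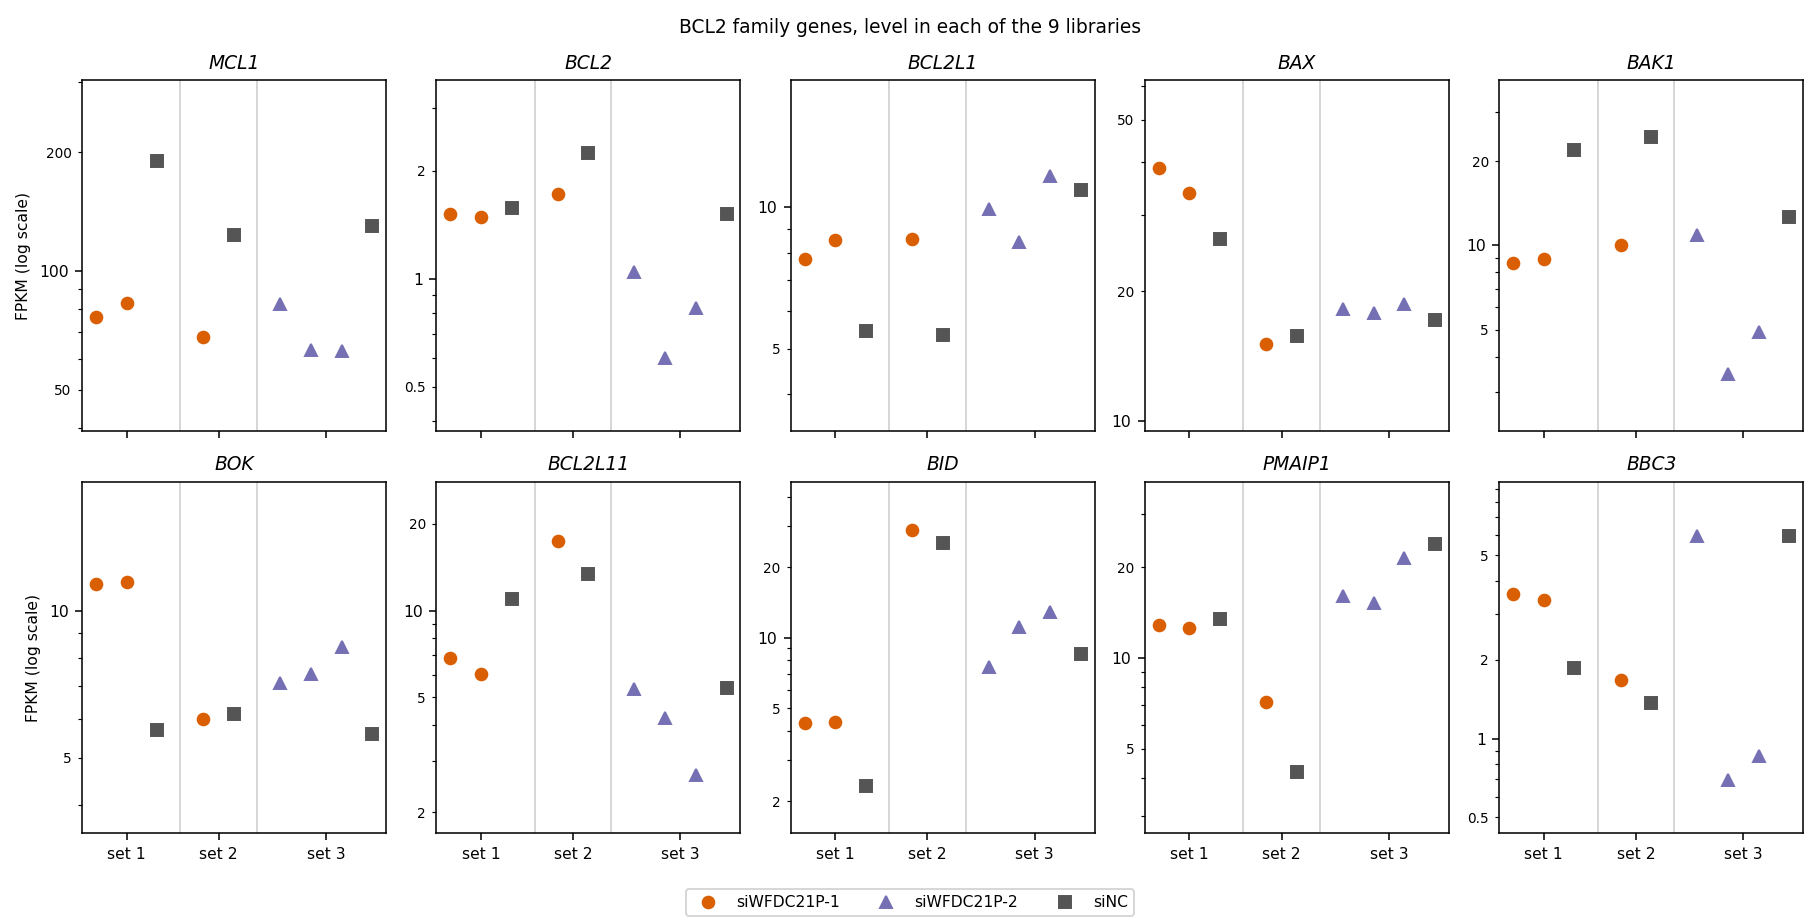
FPKM of the 10 members in each library on log axes, 1 panel a gene, with the libraries of sets 1, 2 and 3 from left to right and knockdown libraries left of the siNC library of their set. MCL1 and BAK1 stand below the grey siNC square in all 3 sets, BID is highest in set 2, and BBC3 splits the siWFDC21P-2 libraries into 1 high and 2 low values.

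MCL1 (ENSG00000143384; hg38, chromosome 1, 150574551 to 150579738, minus strand) had 76.6, 83.0 and 68.2 FPKM in the siWFDC21P-1 libraries. It had 82.5, 63.0 and 62.7 FPKM in the siWFDC21P-2 libraries, against 190, 124 and 130 FPKM in the siNC libraries. MCL1 was thus below the siNC of its set in all 6 knockdown libraries, as were 7.92% of tested genes. Against the siNC of its set, MCL1 stood at 40.3% (95% counting interval 39.4 to 41.3%) and 43.7% (42.7 to 44.7%) in set 1. The siWFDC21P-1 library of set 2 had 55.1% (53.7 to 56.6%). In set 3 it stood at 63.6% (61.6 to 65.7%), 48.5% (46.8 to 50.3%) and 48.4% (46.7 to 50.1%). These rest on 4606 to 24280 recovered reads a library, so counting error is small beside the differences. The intervals cover counting error only, and fewer cells of a type cannot be told apart from less RNA per cell in such bulk samples.

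The log2 fold change of MCL1 was -1.07 ± 0.20 (SE) for siWFDC21P-1, with a limma adjusted p = 0.112. It was -0.90 ± 0.25 for siWFDC21P-2, with a limma adjusted p = 0.756. With both siRNAs pooled it was -1.01 ± 0.15, with a limma adjusted p = 0.0969, the rank 13 of 13014 genes by p. The difference between the siRNAs was -0.17 ± 0.31 (limma adjusted p = 0.919). MCL1 thus lay near, and not past, the adjusted threshold in the pooled comparison. Without both libraries of set 2, the fold change for siWFDC21P-1 was -1.24 (limma adjusted p = 0.240) for MCL1 and -1.23 (limma adjusted p = 0.518) for BAK1.

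The side of that threshold depended on the libraries used. In the pooled comparison MCL1 passed only without siWFDC21P-2 replicate 1. Its pooled limma adjusted p was 0.649 without siNC replicate 1 and 0.421 without siNC replicate 2. Replicate 1 of siWFDC21P-2 lay nearest to its siNC for MCL1, and it was also at 86.3% of siNC for BAK1 and 101% for BBC3. Without it MCL1 passed for siWFDC21P-1 (-1.07, limma adjusted p = 0.0385), for siWFDC21P-2 (-1.03, 0.0304) and for both pooled (-1.06, 0.0202). BAK1 passed likewise, at -1.22 (limma adjusted p = 0.0397), -1.41 (0.0202) and -1.29 (0.0180). The siWFDC21P-1 fold changes, -1.07 for MCL1 and -1.22 for BAK1, were the same with siWFDC21P-2 replicate 1, which is in set 3. For siWFDC21P-1 only the spread shared by all libraries changed. Of all tested genes, 0.246%, 2.61% and 0.307% then passed as lower in the same comparisons. In set 3 the 7 fibroblast markers summed to 158, 640 and 582 FPKM in siWFDC21P-2 replicates 1 to 3, against 110 FPKM in siNC replicate 3, with DCN (decorin) at 0.0181 FPKM or less in all 4. The stress list was divided the same way in the other direction. It holds transcription factors upstream of the BH3-only genes, and the response genes TRIB3 and CHAC1. Its 9 genes summed to 566, 254 and 304 FPKM in siWFDC21P-2 replicates 1 to 3, against 650 FPKM in siNC replicate 3. Of the 9, 6 had replicates 2 and 3 both below replicate 1 and siNC (30.3% of tested genes did). DDIT3 (CHOP), a stress-induced transcription factor, had 51.7, 6.89 and 4.73 FPKM in the siWFDC21P-2 libraries, against 53.2 FPKM in siNC replicate 3. TRIB3, a pseudokinase gene induced by the same stress response, had 71.6, 4.56 and 7.03 FPKM, against 68.2 FPKM. ATF3 had 20.2, 2.48 and 3.73 FPKM, against 23.8 FPKM, and the p53 target SESN2 (sestrin 2) 54.4, 6.71 and 6.94 FPKM, against 84.6 FPKM; these 4 genes were chosen after their values were seen. Both lists therefore moved with the same division of the libraries, and their part in the result was not tested.

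The other anti-apoptotic genes were at far lower levels than MCL1, at most 11.6 FPKM in any library. BCL2 (ENSG00000171791; chromosome 18, 63123346 to 63320128, minus strand), the founding member of the family, had 1.52, 1.48 and 1.72 FPKM in the siWFDC21P-1 libraries. It had 1.04, 0.599 and 0.831 FPKM in the siWFDC21P-2 libraries, against 1.57, 2.24 and 1.51 FPKM in the siNC libraries. BCL2 was below the siNC of its set in all 3 siWFDC21P-2 libraries, as were 26.0% of tested genes. The same held in all 3 siWFDC21P-1 libraries (20.7% of tested genes), though their values overlapped those of siNC across sets. In set 1 the values were 96.4% (95% counting interval 85.3 to 109%) and 94.4% of siNC (83.5 to 107%), a difference that was not detectable at this depth. In set 3 they were 68.8% (57.4 to 82.4%), 39.6% and 54.9%. The limma log2 fold change was -0.13 ± 0.17 for siWFDC21P-1, -0.47 ± 0.21 for siWFDC21P-2 and -0.26 ± 0.14 pooled (adjusted p = 0.421). Leaving out siNC replicate 3 takes siWFDC21P-2 out of the fit, so that the pooled value is then that of siWFDC21P-1 alone, here -0.13.

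BCL2L1 (ENSG00000171552; chromosome 20, 31664452 to 31723989, minus strand), whose main product BCL-XL holds back both BAX and BAK, had higher values than siNC with siWFDC21P-1 and values on both sides of siNC with siWFDC21P-2. It had 7.77, 8.52 and 8.56 FPKM in the siWFDC21P-1 libraries and 9.89, 8.44 and 11.6 FPKM in the siWFDC21P-2 libraries, against 5.45, 5.33 and 10.8 FPKM in the siNC libraries. The siWFDC21P-1 values were 143%, 156% and 160% of the siNC of their sets, and those of siWFDC21P-2 were 91.1%, 77.8% and 107%. All 3 siWFDC21P-1 libraries were above siNC, as were 27.9% of tested genes. The limma log2 fold change was 0.54 ± 0.18 for siWFDC21P-1 (adjusted p = 0.262) and -0.12 ± 0.22 for siWFDC21P-2 (adjusted p = 0.887). The difference between the siRNAs was 0.66 ± 0.29 (limma adjusted p = 0.830). The antisense transcript ABALON shares 1424 exon bases with BCL2L1 and had at most 0.527 FPKM.

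**Figure D2:**
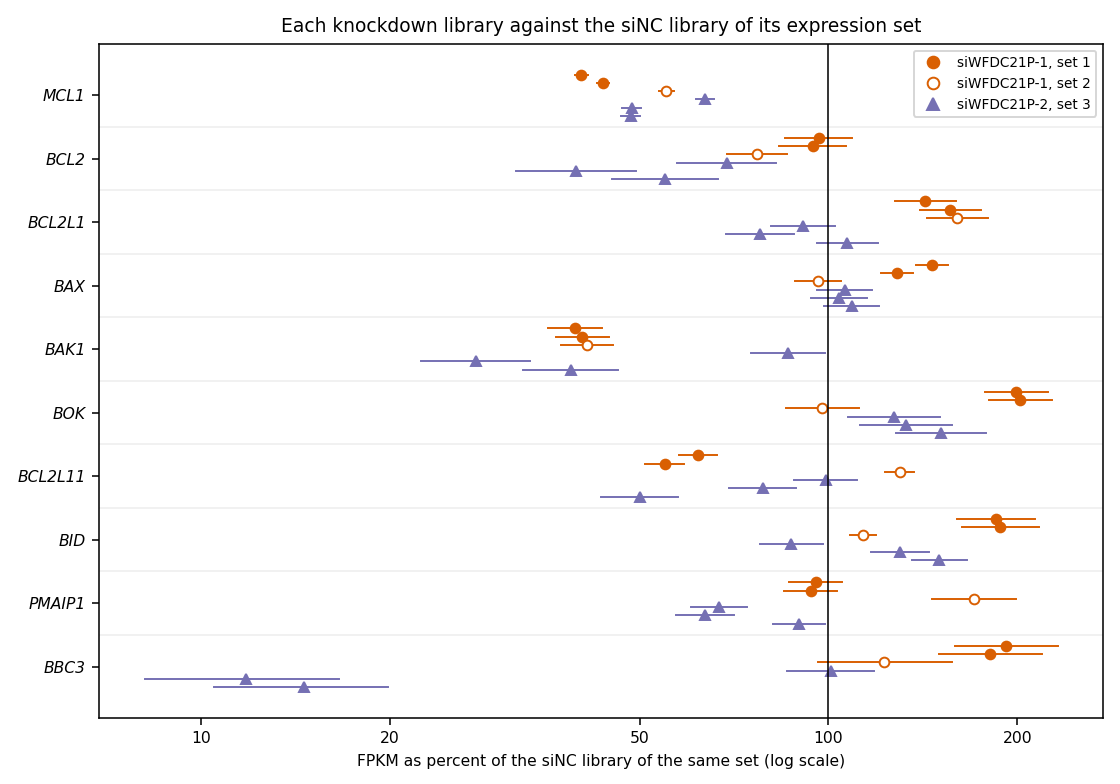
FPKM of each knockdown library as a percent of the siNC library of its set on a log axis, with bars for the 95% counting interval. All 6 points of MCL1 lie left of 100%, at 40.3 to 63.6%, and BAK1 has 5 points at 27.5 to 41.2% and 1 at 86.3%.

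BAK1 (ENSG00000030110; chromosome 6, 33572547 to 33580293, minus strand), whose promoter is given above, encodes the effector that resides in the mitochondrial membrane. It had 8.67, 8.91 and 10.0 FPKM in the siWFDC21P-1 libraries and 10.9, 3.46 and 4.89 FPKM in the siWFDC21P-2 libraries, against 22.0, 24.3 and 12.6 FPKM in the siNC libraries. BAK1 was thus below the siNC of its set in all 6 knockdown libraries, as were 7.92% of tested genes. Set 1 and set 2 gave nearly the same share of siNC, 39.4%, 40.5% and 41.2%, although these 2 sets differ widely in their epithelial markers. In the same libraries the target WFDC21P was at 2.04%, 24.9% and 176% of siNC, the last from 7 against 4 reads. In set 3 the shares were 86.3% (95% counting interval 75.4 to 98.8%), 27.5% (22.4 to 33.5%) and 38.9% (32.6 to 46.2%), and replicate 1 lay apart from the other 2. The log2 fold change was -1.22 ± 0.38 for siWFDC21P-1 (limma adjusted p = 0.241), -1.003 ± 0.47 for siWFDC21P-2 (adjusted p = 0.756) and -1.13 ± 0.28 pooled (adjusted p = 0.193). The pseudogene BAK1P1 had at most 0.834 FPKM, and GGNBP1 on the opposite strand, with 91 shared exon bases, at most 0.197 FPKM.

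BAX (ENSG00000087088; chromosome 19, 48954815 to 48961798, plus strand), the effector that moves from the cytosol to mitochondria, had 38.6, 33.9 and 15.1 FPKM in the siWFDC21P-1 libraries. It had 18.2, 17.8 and 18.7 FPKM in the siWFDC21P-2 libraries, against 26.4, 15.7 and 17.2 FPKM in the siNC libraries. It was at 146% and 128% of siNC in set 1, at 96.2% (95% counting interval 88.5 to 105%) in set 2, and the siWFDC21P-2 libraries had 104 to 109%. Outside set 1 every counting interval spanned 100%, so that no difference was detectable there at this depth. The limma log2 fold change was 0.23 ± 0.17 for siWFDC21P-1, 0.08 ± 0.22 for siWFDC21P-2 and 0.17 ± 0.13 pooled (adjusted p = 0.560), the last being 0.03 without siNC replicate 1.

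BOK (ENSG00000176720; chromosome 2, 241551424 to 241574138, plus strand), an effector relative that the anti-apoptotic members hardly bind, had 11.3, 11.5 and 6.00 FPKM in the siWFDC21P-1 libraries. It had 7.10, 7.42 and 8.43 FPKM in the siWFDC21P-2 libraries, against 5.69, 6.13 and 5.59 FPKM in the siNC libraries. It was at 199% and 202% of siNC in set 1, at 97.8% in set 2 and at 127%, 133% and 151% in set 3, above siNC in 5 of 6 libraries. The pooled log2 fold change was 0.46 ± 0.17 (limma adjusted p = 0.283). It became 0.22 without siNC replicate 1, and the value for siWFDC21P-1 was then -0.03, against 0.50 ± 0.23 with all libraries. BOK shares 201 exon bases with the antisense gene BOK-AS1.

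**Figure D3:**
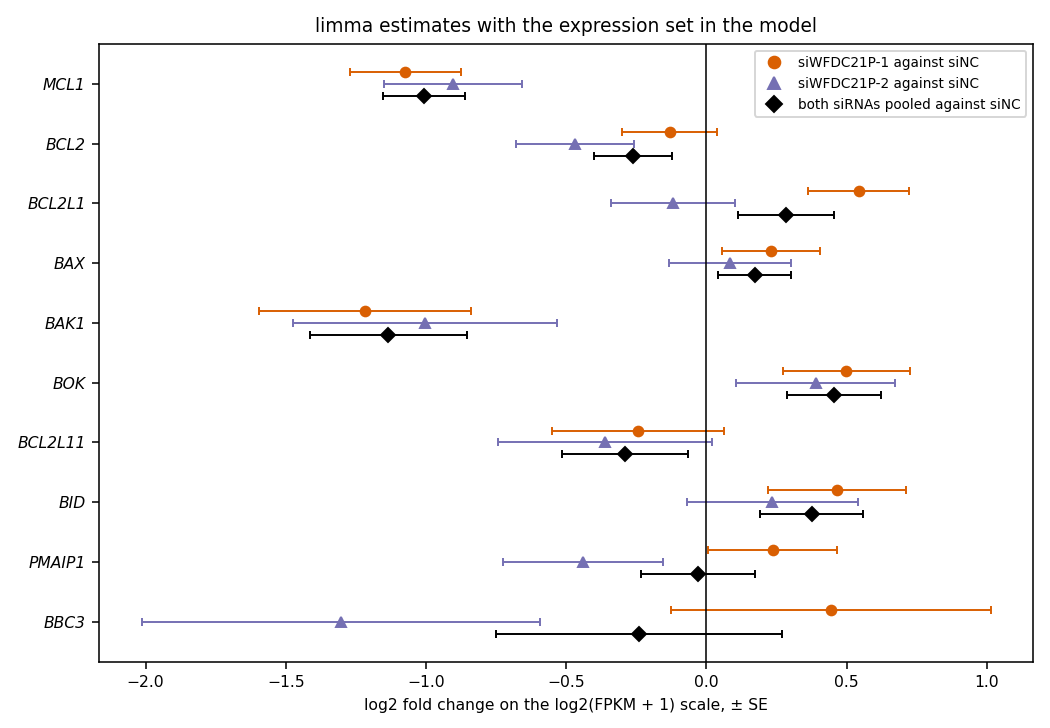
Log2 fold changes of the 10 members from limma on log2(FPKM + 1) with the expression set as a term, with bars for ± 1 SE. MCL1 and BAK1 lie near -1 for both siRNAs and pooled, and BCL2L1, PMAIP1 and BBC3 lie on opposite sides of 0 for siWFDC21P-1 and siWFDC21P-2.

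Among the BH3-only genes none was on one side of siNC in all 6 libraries. BBC3 (ENSG00000105327; chromosome 19, 47220822 to 47232766, minus strand), a direct p53 target, had 3.57, 3.37 and 1.68 FPKM in the siWFDC21P-1 libraries. It had 5.95, 0.695 and 0.860 FPKM in the siWFDC21P-2 libraries, against 1.86, 1.37 and 5.90 FPKM in the siNC libraries. In siWFDC21P-1 it was at 192%, 181% and 123% of siNC, the last with a counting interval of 96.1 to 157%. In siWFDC21P-2 replicate 1 it was level with siNC at 101% (86.0 to 118%), and in replicates 2 and 3 it was at 11.8% (8.14 to 16.6%) and 14.6% (10.5 to 19.9%), from 37 and 47 reads against 306. The limma log2 fold change for siWFDC21P-2 was -1.30 ± 0.71 (adjusted p = 0.756), and without replicate 1 it was -1.96 (adjusted p = 0.0101). For siWFDC21P-1 it was 0.44 ± 0.57, and the difference between the siRNAs was 1.75 ± 0.91 (limma adjusted p = 0.830).

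PMAIP1 (ENSG00000141682; chromosome 18, 59899948 to 59904306, plus strand) had 12.8, 12.6 and 7.15 FPKM in the siWFDC21P-1 libraries. It had 16.1, 15.2 and 21.5 FPKM in the siWFDC21P-2 libraries, against 13.5, 4.19 and 24.0 FPKM in the siNC libraries. It was at 95.4% and 93.6% of siNC in set 1, at 171% in set 2 and at 66.9%, 63.5% and 89.7% in set 3, and its pooled log2 fold change was -0.03 ± 0.20 (limma adjusted p = 0.959). BCL2L11 (ENSG00000153094; chromosome 2, 111119378 to 111168447, plus strand), whose product BIM binds all anti-apoptotic members, had 6.82, 6.04 and 17.4 FPKM in the siWFDC21P-1 libraries. It had 5.35, 4.25 and 2.70 FPKM in the siWFDC21P-2 libraries, against 11.01, 13.4 and 5.40 FPKM in the siNC libraries. Its shares of siNC were 62.0% and 54.9% in set 1, 130% in set 2 and 99.0%, 78.6% and 50.01% in set 3, with a pooled log2 fold change of -0.29 ± 0.23 (limma adjusted p = 0.565). That value was -0.0764 without siNC replicate 1 and -0.52 without either library of set 2. PMAIP1 and BCL2L11 therefore lay below siNC in 5 of 6 libraries, the siWFDC21P-1 library of set 2 being the exception for both, and in 3 of these values the counting interval included 100%. The lncRNA gene MIR4435-2HG, on the opposite strand, shares 727 exon bases with BCL2L11 and had 1.88 to 4.38 FPKM, and without strand, reads in the shared bases cannot be told apart.

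BID (ENSG00000015475; chromosome 22, 17734138 to 17774770, minus strand), which caspase-8 cleaves to link death receptors to mitochondria, had the highest ratio between set means of the 10 members, 7.41, with a mean of 3.67 FPKM in set 1 and 27.2 FPKM in set 2. It had 4.31, 4.37 and 28.9 FPKM in the siWFDC21P-1 libraries and 7.46, 11.1 and 12.9 FPKM in the siWFDC21P-2 libraries, against 2.33, 25.5 and 8.56 FPKM in the siNC libraries. The 2 set 2 libraries stood above all others, and the 3 set 1 libraries below those of set 3. Within sets it was at 185%, 188% and 114% of siNC with siWFDC21P-1 and at 87.2%, 130% and 150% with siWFDC21P-2. The pooled log2 fold change was 0.37 ± 0.18 (limma adjusted p = 0.388), and 0.21 without siNC replicate 1.

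Counted by siRNA, MCL1, BCL2 and BAK1 were below the siNC of their set in all 3 siWFDC21P-1 libraries (20.7% of tested genes were), and BCL2L1, BID and BBC3 were above it (27.9%). In all 3 siWFDC21P-2 libraries MCL1, BCL2, BAK1, BCL2L11 and PMAIP1 were below (26.0% of tested genes) and BAX and BOK above (26.9%). The median log2 fold change of the 10 members was 0.23 for siWFDC21P-1, with 6 higher and 4 lower, beside 0.03 over all tested genes. For siWFDC21P-2 it was -0.40, with 3 higher and 7 lower, beside 0.02, and pooled it was -0.13, with 4 higher and 6 lower, beside 0.03.

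The order of levels differed between the backgrounds below the first place. In set 1 the order of mean FPKM was MCL1, BAX, BAK1, PMAIP1, BOK, BCL2L11, BCL2L1, BID, BBC3 and BCL2, with overlapping ranges between BAK1 and PMAIP1, between neighbours from BOK to BCL2L1, and between BID and BBC3. In set 2 the order was MCL1, BID, BAK1, BAX, BCL2L11, BCL2L1, BOK, PMAIP1, BCL2 and BBC3, with overlaps between neighbours from BAK1 to BCL2L11 and from BCL2L1 to PMAIP1. In set 3 the order was MCL1, PMAIP1, BAX, BCL2L1, BID, BAK1, BOK, BCL2L11, BBC3 and BCL2, with overlaps between PMAIP1 and BAX, between neighbours from BCL2L1 to BOK and from BCL2L11 to BCL2. BID was in place 2 in the epithelial set 2 at 27.2 ± 2.44 FPKM (SD, 2 libraries) and in place 8 in set 1 at 3.67 ± 1.16 (SD, 3 libraries). BAX was at 33.0 ± 6.15 FPKM in set 1, 15.4 ± 0.422 in set 2 and 18.0 ± 0.644 in set 3. These means include knockdown and siNC libraries, and because the sets were made from these same libraries, their levels are a description with no test.

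The balance of the family was summed by role, in FPKM, which corrects for gene length. The anti-apoptotic sum was 85.9, 93.0 and 78.4 FPKM in the siWFDC21P-1 libraries and 93.4, 72.0 and 75.2 FPKM in the siWFDC21P-2 libraries, against 197, 131 and 142 FPKM in the siNC libraries. MCL1 made up 83.4 to 89.2% of that sum in the knockdown libraries and 91.3 to 96.4% in the siNC libraries, so the sum follows MCL1. The effector sum was 58.6, 54.3 and 31.1 FPKM in the siWFDC21P-1 libraries and 36.2, 28.7 and 32.0 FPKM in the siWFDC21P-2 libraries, against 54.1, 46.2 and 35.4 FPKM in the siNC libraries. It was 67.5 to 108% of the siNC of the set, a narrower departure than the 43.6 to 65.8% of the anti-apoptotic sum. The BH3-only sum was 27.5, 26.4 and 55.2 FPKM in the siWFDC21P-1 libraries and 34.8, 31.3 and 37.9 FPKM in the siWFDC21P-2 libraries, against 28.7, 44.4 and 43.9 FPKM in the siNC libraries.

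The anti-apoptotic over effector ratio was 1.47, 1.71 and 2.52 in the siWFDC21P-1 libraries and 2.58, 2.51 and 2.35 in the siWFDC21P-2 libraries, against 3.64, 2.84 and 4.02 in the siNC libraries. It was lower than in the siNC of the set in all 6 libraries, and the gap was narrowest in set 2. This ratio follows MCL1. With BCL2 and BCL2L1 alone over the effectors, it was 0.158, 0.184 and 0.330 in the siWFDC21P-1 libraries. The siWFDC21P-2 libraries had 0.302, 0.315 and 0.389, against 0.130, 0.164 and 0.350 in the siNC libraries. Without MCL1 the ratio was thus above siNC with siWFDC21P-1 and in siWFDC21P-2 replicate 3, and below it in siWFDC21P-2 replicates 1 and 2. The composition of the effectors differed as well, as a description with no test. BAK1 was 14.8%, 16.4% and 32.2% of the effector sum in the siWFDC21P-1 libraries and 30.02%, 12.04% and 15.3% in the siWFDC21P-2 libraries, against 40.7%, 52.6% and 35.6% in the siNC libraries. The BAX over BAK1 ratio was 4.45, 3.80 and 1.51 in the siWFDC21P-1 libraries and 1.68, 5.16 and 3.82 in the siWFDC21P-2 libraries, against 1.20, 0.647 and 1.36 in the siNC libraries. MCL1 over BAK1 overlapped between knockdown and siNC libraries across sets. It was 8.83, 9.31 and 6.80 in the siWFDC21P-1 libraries and 7.59, 18.2 and 12.8 in the siWFDC21P-2 libraries, against 8.63, 5.08 and 10.3 in the siNC libraries. Within sets it was above siNC in every knockdown library except siWFDC21P-2 replicate 1. MCL1 over BCL2L1 was 9.86, 9.74 and 7.97 in the siWFDC21P-1 libraries and 8.34, 7.46 and 5.40 in the siWFDC21P-2 libraries, against 34.9, 23.2 and 11.96 in the siNC libraries. These ratios are of transcript levels, and protein was not measured.

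**Figure D4:**
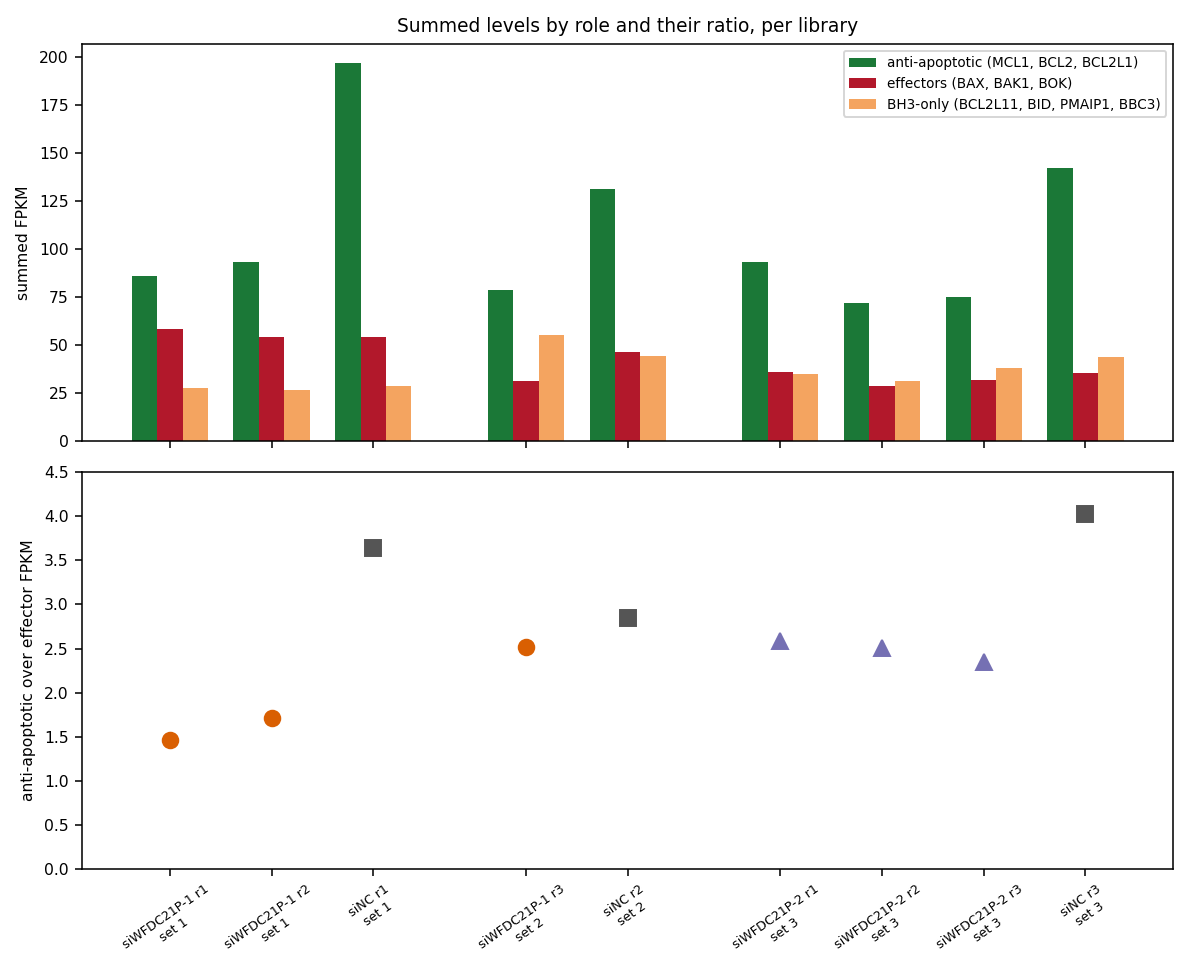
Summed FPKM of the anti-apoptotic, effector and BH3-only members (bars, upper panel) and the anti-apoptotic over effector ratio (points, lower panel) in each library, with knockdown libraries left of the siNC library of their set. The ratio is 1.47 to 2.58 in the 6 knockdown libraries and 2.84 to 4.02 in the 3 siNC libraries.

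After subtraction of each set's mean, MCL1 and BAK1 varied together over the 9 libraries (Pearson r of log2(FPKM + 1) 0.923), the highest value among the 45 pairs of members. BAX and BOK followed at 0.902, and BAK1 and BID (-0.864) and MCL1 and BOK (-0.863) had the lowest values. The points share the 3 siNC libraries, the sets and the depth, so these are descriptions. By the same measure the tested genes most like MCL1 were PI4K2A, a phosphatidylinositol 4-kinase (0.989), RAB3D, a vesicle GTPase (0.985), N4BP3 (0.983), OAS3, an interferon-induced oligoadenylate synthetase (0.982), and GCH1, the first enzyme of tetrahydrobiopterin synthesis (0.980). Most like BAK1 were IER3, an immediate early gene (0.993), SPAST, a microtubule-severing enzyme (0.990), the antisense transcript NFATC2IP-AS1 (0.986), USP36, a nucleolar deubiquitinase (0.985), and FAM135A (0.984). OAS3 was at 15.4 to 39.1% of siNC and IER3 at 36.0 to 81.5%.

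Around the members, 10 lists of apoptosis-related genes held 106 genes, of which 93 were tested. With both siRNAs pooled, 0 passed the adjusted threshold, and 11 were lower and 8 higher at an unadjusted limma p under 0.05 (5.22% and 9.16% of all tested genes). The one list gene that passed for a single siRNA was CDKN1A, the p53 target encoding p21, which fell with siWFDC21P-1 (-2.42 ± 0.21, limma adjusted p = 0.0442). That call was lost on leaving out any one of 7 libraries, all but siNC replicate 3 and siWFDC21P-2 replicate 1 (limma adjusted p of 0.0565 to 0.333). It had 65.8, 54.6 and 8.55 FPKM in the siWFDC21P-1 libraries and 11.7, 7.52 and 10.1 FPKM in the siWFDC21P-2 libraries, against 324, 50.6 and 23.8 FPKM in the siNC libraries. Of the 13 p53 genes tested, 2 were below siNC in all 6 libraries (CDKN1A and RRM2B) and 0 above, beside 7.92% and 10.8% of all tested genes. The pooled list median was -0.26, beside 0.03 over all tested genes. GADD45A, a growth arrest gene, had a pooled log2 fold change of -0.64 ± 0.23, and -0.36 without siNC replicate 3. Of the 30 list genes chosen by their pooled p, 13 moved by over 1.5 times on leaving out some single library; where the text gives the pooled value of one of them, the moved value stands beside it.

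Of 13 other BCL2 family genes 7 were tested, 2 being lower and 1 higher at an unadjusted limma p under 0.05. The mitophagy receptor genes BNIP3L and BNIP3 had pooled log2 fold changes of -0.98 ± 0.38 and -0.39 ± 0.12, and BCL2L13 had 0.51 ± 0.19. Among 10 tested genes of MCL1 turnover and partners, 3 were lower and 1 higher at that p. IER3 had 33.6, 29.9 and 53.6 FPKM in the siWFDC21P-1 libraries and 154, 67.9 and 79.1 FPKM in the siWFDC21P-2 libraries, against 72.7, 126 and 189 FPKM in the siNC libraries (pooled -1.12 ± 0.25, limma adjusted p = 0.160). BAG3, a co-chaperone of HSP70, had -0.66 ± 0.24 (-0.43 without siNC replicate 3), and BTRC, an F-box subunit of a ubiquitin ligase, had -0.48 ± 0.14.

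Downstream of the mitochondrial pore, 11 genes of the apoptosome, caspases and nuclease were tested, with 0 in either direction at an unadjusted limma p under 0.05. ENDOG, a mitochondrial endonuclease, had a pooled log2 fold change of 0.66 ± 0.31 and CYCS (cytochrome c) 0.32 ± 0.20. Without siNC replicate 1 these were 0.37 for ENDOG and 0.0954 for CYCS. Of 6 tested inhibitor of apoptosis genes and antagonists, XIAP, the caspase inhibitor, was below siNC in all 6 libraries (-0.84 ± 0.24, limma adjusted p = 0.222). BIRC5 (survivin), which also serves chromosome segregation, was above it in all 6 (1.00 ± 0.30, limma adjusted p = 0.232). The shares over all tested genes were 7.92% below and 10.8% above in all 6. Of 9 tested death receptor genes, the TRAIL receptor genes TNFRSF10A and TNFRSF10B had -0.62 ± 0.26 and -0.56 ± 0.32, and the adaptor FADD had 0.45 ± 0.22. By siRNA, siWFDC21P-1 had -0.22 for TNFRSF10A and -0.0961 for TNFRSF10B, and siWFDC21P-2 had -1.25 for TNFRSF10A and -1.29 for TNFRSF10B. The values for siWFDC21P-1 are also the pooled ones without siNC replicate 3, and without either library of set 2 TNFRSF10B was at -0.88 pooled. TNFRSF10D, a TRAIL decoy receptor gene added after its value was seen, had 0.02 ± 0.18 pooled.

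On the outer mitochondrial membrane, where the members act, 11 partner and fission genes were tested, with 0 lower and 2 higher at an unadjusted limma p under 0.05. TOMM22, an import receptor that BAX is known to engage, had 57.9, 43.0 and 35.4 FPKM in the siWFDC21P-1 libraries. It had 37.1, 53.1 and 50.2 FPKM in the siWFDC21P-2 libraries, against 14.3, 16.2 and 18.6 FPKM in the siNC libraries. TOMM22 was thus above the siNC of its set in all 6 knockdown libraries, as were 10.8% of tested genes. Its pooled log2 fold change was 1.38 ± 0.19 (limma adjusted p = 0.0969), the opposite direction to MCL1. The Benjamini-Hochberg step tied their adjusted p, and the unadjusted limma p was 5.10e-05 for TOMM22 and 9.68e-05 for MCL1. Without siWFDC21P-2 replicate 1, TOMM22 and CDKN1A (limma adjusted p = 0.0191 for both) and IER3 (0.0163) passed in the pooled comparison. MFN1 (mitofusin 1) had 0.52 ± 0.14 and FIS1 0.25 ± 0.13.

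Upstream, the stress list had 9 tested genes, with 0 in either direction at an unadjusted limma p under 0.05 in the pooled comparison. CHAC1, a target of ATF4, was at -1.01 ± 0.54. The siRNAs lay apart in that list, with a median of 0.25 for siWFDC21P-1 and -1.06 for siWFDC21P-2, a difference that was not tested over the list. With no set shared by the siRNAs, siRNA and cell background cannot be told apart here. For siWFDC21P-1 0 of the 9 genes stood at an unadjusted limma p under 0.05, and for siWFDC21P-2 2 lower ones did, CHAC1 (-2.07 ± 0.77) and FOXO3 (-0.82 ± 0.32), the second named after its value was seen. CHAC1 had -0.33 for siWFDC21P-1, which is also its pooled value without siNC replicate 3. Of 9 tested genes of the STAT3 list, STAT3, an activator of MCL1 transcription, was level with siNC in siWFDC21P-1 replicate 1 (27.7 FPKM in both) and above it in the other 5 knockdown libraries (0.39 ± 0.14, adjusted p = 0.283). CCND1 (cyclin D1), a target, had -0.88 ± 0.32 pooled, -1.28 ± 0.36 with siWFDC21P-1 and -0.25 ± 0.45 with siWFDC21P-2. Without either library of set 2 it was at -0.45 pooled. PIM1, a kinase gene, had -0.87 ± 0.43 pooled, -0.48 ± 0.54 with siWFDC21P-1 and -1.49 ± 0.67 with siWFDC21P-2, the siWFDC21P-1 value being the pooled one without siNC replicate 3. Of 8 tested transcription elongation genes, on which short-lived transcripts such as MCL1 depend, CDK9 had 0.57 ± 0.20, CDK12 0.44 ± 0.15 and CCNT1 (cyclin T1) -0.32 ± 0.15 (-0.15 without siNC replicate 3).

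**Figure D5:**
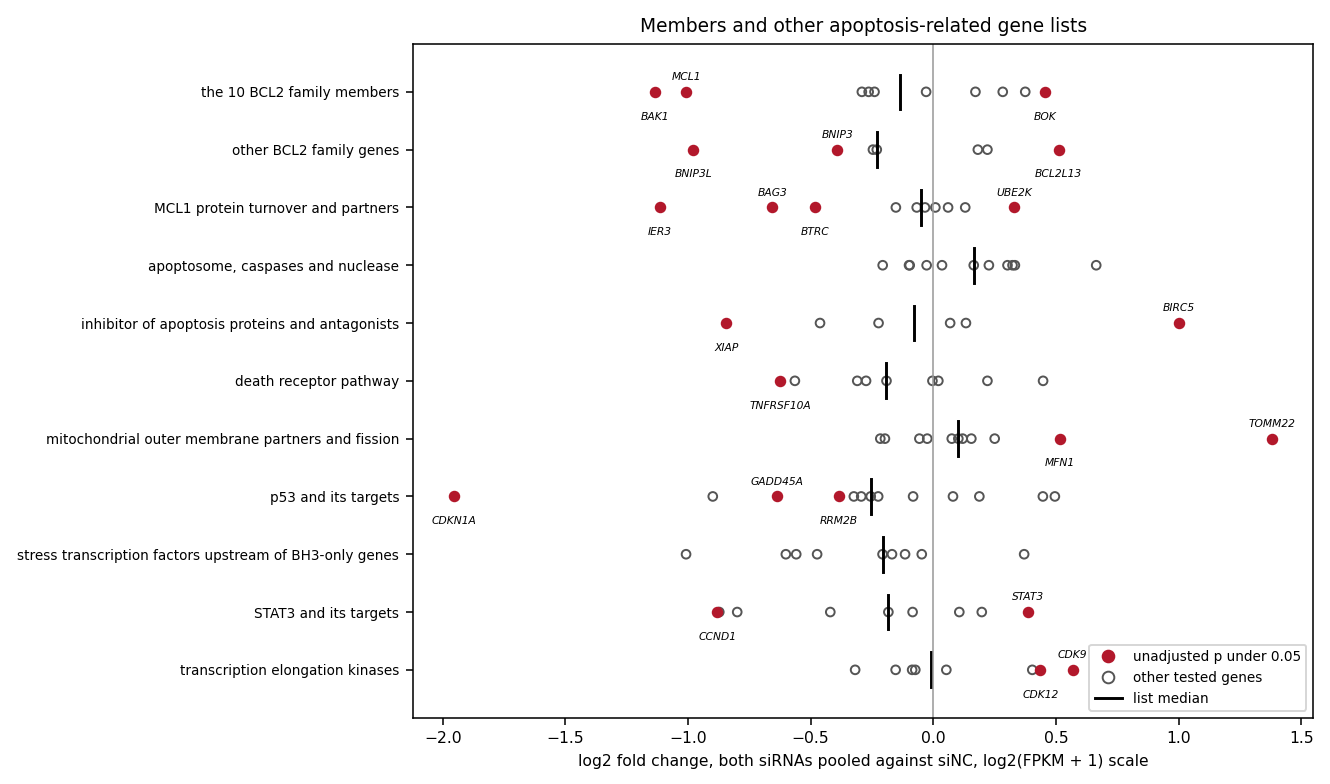
Pooled log2 fold changes of the tested genes, 1 row for the 10 members and 1 for each of the 10 lists, with list medians as black bars and genes at an unadjusted p under 0.05 filled and named. CDKN1A (-1.95) lies lowest and TOMM22 (1.38) highest, with BAK1 (-1.13) and MCL1 (-1.01) the lowest of the members.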

How the data were processed

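RNA sequencing values of 9 libraries were deposited by the authors as FPKM per Ensembl gene, 1 table a library. Per the submitters' processing notes, HISAT2 2.1.0, Bowtie2 2.2.3, HTSeq 0.6.0 and hg38 were used, with no role given; whether strand was kept is not given in the sources used here. Whole reads were recovered from the deposited FPKM for 26441 of 26636 common genes (99.3%, to within 0.02 reads). For 24684 of them the GENCODE 29 exon length served, and these lengths gave denominators of 16.3 to 29.7 M reads. For the rest, the shortest length that gave whole reads in every library was searched for and used. BOK was among the latter, with 2657 bases used in place of 2711. An FPKM is a share of the mapped reads, so it shows relative, not absolute, change.

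The 13014 genes that averaged 1 FPKM or more were tested as log2(FPKM + 1) with limma 3.58.1 in R 4.3.3 (trended variances, set and siRNA as terms, Benjamini-Hochberg at 0.05). Folds are on that scale, which understates low genes. With the set term, each siRNA was compared with the siNC of its own set, so siWFDC21P-2 had 1 control library, and the spread came from all 9. Sets came from average-linkage clustering on 1 minus r at a height of 0.15. Counting intervals are exact 95% intervals on recovered reads. The fit was tested on simulated data.

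Named were all members, up to 3 genes a list with the smallest pooled p, the 5 genes most like MCL1 and BAK1 by set-centred r, WFDC21P and the markers. The members and lists were chosen with earlier results of these data known. One gene of a list is not reported here and was left out of the list counts. Alternatives were another pseudocount, no filter, 2 scalings, naming style (2 styles of gene table) in place of the set, no such term, a replicate block, limma-voom on recovered reads, TPM for levels, and leaving out each library.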

Additional observations from a re-analysis of the deposited data

Results flagged for a closer look

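In siWFDC21P-1, 4 members lay on opposite sides of siNC in the 2 sets that hold its libraries: both set 1 libraries were on one side and the set 2 library on the other. The log2 difference to siNC, as set 1 minus set 2, was 0.49 for BAX and 0.92 for BOK, which were higher than siNC in set 1. It was -1.05 for BCL2L11 and -0.73 for PMAIP1, which were lower than siNC in set 1. The counting interval of the share of siNC included 100% for BAX (96.2%) and BOK (97.8%) in set 2 and for PMAIP1 in set 1 (95.4% and 93.6%), so that of the 4 only BCL2L11 was clear of siNC on both sides. With 1 knockdown library in set 2, these differences were not tested. The target was at 2.04% and 24.9% of siNC in the set 1 libraries and not detectably different in set 2, where it was near 0 in both libraries.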

How the results depend on the processing

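MCL1 and BAK1 kept their lower side in both siRNAs and pooled under every alternative run, with pooled values of -1.29 to -1.03 for BAK1, and MCL1, BCL2 and BAK1 stayed below siNC in all 6 libraries without the filter and under both scalings. Of the members' values, 233 kept direction and side of the threshold under alternatives that used all libraries and 7 changed sign; on leaving out a library 244 kept both, 7 newly passed (all without siWFDC21P-2 replicate 1) and 9 changed sign. The count of genes called for siWFDC21P-1 was 3 and became 0 with the naming style, with no term, without the filter, with median scaling and with the replicate block, 26 with limma-voom on recovered reads, and 0 to 153 on leaving out a library. For siWFDC21P-2 it was 0 (682 at an unadjusted p under 0.05 in limma; 0 in limma-voom), 17 without the filter, and 0 to 902. Pooled it was 1 and became 0 with the naming style, no term, no filter, either scaling or the replicate block, 2 with a pseudocount of 0.1, and 0 to 204. The difference between the siRNAs had 0 (703 at an unadjusted p under 0.05), 7 without the filter, and 0 to 182. The highest counts are without siWFDC21P-2 replicate 1, and the cause was not tested. Same-numbered deviations from the group means correlated at -0.683 to 0.667, with the differences between sets left in. With the set in the model, same-numbered residuals correlated at -0.245 to 0.389. Replicate numbers were not taken as pairs in the main fit.

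With no set or style term, the log2 fold change was 0.47 for BCL2L1, -0.0746 for BAX, 0.58 for PMAIP1 and 0.31 for WFDC21P in siWFDC21P-2, -0.10 for PMAIP1 in siWFDC21P-1 and 0.24 for PMAIP1 pooled. With the naming style PMAIP1 pooled was 0.0844, and with the replicate block BCL2L1 in siWFDC21P-2 was 0.0465. On leaving out a library, values for siWFDC21P-1 ranged from -0.0525 to 0.44 for BAX, -0.0273 to 0.89 for BOK, -0.69 to 0.35 for BCL2L11, -0.0758 to 0.65 for PMAIP1 and -1.57 to 0.12 for WFDC21P. Pooled, they ranged from -0.27 to 0.24 for PMAIP1 and from -0.71 to 0.44 for BBC3; the upper ends are without siNC replicate 3, where siWFDC21P-1 alone is left. MCL1 in siWFDC21P-1 replicate 1 was at 38.9% of siNC as TPM. Without siNC replicate 3, neither siWFDC21P-2 against siNC nor the difference between the siRNAs could be fitted.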
